A study of Mus musculus with 16 samples.

Results

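The interferon-stimulated antiviral genes described here are 34 mouse genes known from other work to rise when cells meet interferon. They were chosen by gene symbol, and all 34 were found among the 55487 genes of the deposited count table. Irf1 and Trim30a were set apart as members that NF-kB is also known to induce, Stat2 and Irf9 as subunits of the transcription factor ISGF3, and the other 30 as ISGF3 targets. RNA was sequenced from cultured bone marrow cells of C57BL/6 background that were wild type (WT) or lacked Nbeal2 (Nbeal2-/-), a BEACH-domain protein known for its part in the formation of platelet alpha granules. Each genotype was left untreated or given IL-33, a cytokine of the IL-1 family that signals through ST2 and MyD88 to NF-kB, with 4 libraries in each of the 4 groups. They are named mast cells in the series title and bone marrow mononuclear cells in the cell type label. The IL-33 dose and time, the deleted part of Nbeal2 and the sex and age of the mice were not given in the sources used here. The labels do not tie libraries to animals, and p-values therefore cover the spread among these libraries, part of which may be technical. Within a genotype the replicate numbers pair untreated with IL-33 libraries, and the main test did not use this pairing.

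Type I interferon works through surface receptors coupled to the kinases JAK1 and TYK2. These lead to the assembly of ISGF3, of which STAT2 and IRF9 are subunits. ISGF3 binds the interferon-stimulated response element (ISRE) in the promoters of antiviral genes, and type II interferon acts through the GAS element. Many of the same genes also answer to IRF1, IRF3 or NF-kB, and many are transcribed at a low level in cells that have met no added interferon. Mast cells are tissue sentinels that can respond to viral RNA and to interferon, and IL-33 is an activator of them.

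The libraries held 36405209 to 57694499 counts assigned to genes. Principal component 1 (69.7% of the variance) separated IL-33 from untreated libraries and component 2 (10.2%) the genotypes. The 4 libraries numbered 1 were the highest on component 3 (4.03%). Levels below are CPM, counts scaled to library size with TMM factors. Nbeal2 was at 224, 448, 413 and 423 CPM in untreated WT libraries and at 85.0 to 103 CPM in untreated Nbeal2-/- libraries, with transcript remaining. With IL-33 the ranges were 183 to 258 CPM in WT and 64.3 to 76.9 CPM in Nbeal2-/-. The mast cell markers Kit, Fcer1a, Ms4a2, Il1rl1, Cpa3, Gata2, Hdc and Tpsb2 were detected in each group, with summed levels of 48004 to 50369 CPM over the WT libraries, 34702 to 38807 in untreated Nbeal2-/- and 38613 to 42733 CPM in Nbeal2-/- with IL-33. At an edgeR adjusted p under 0.05, 5 of the 8 were lower in untreated Nbeal2-/- than in WT (62.5%, against 17.5% of all genes). With IL-33 3 were lower (37.5%, against 5.69%), and 0 were higher in either condition. Their part in the results below was not tested. Sex-linked transcripts differed between cultures of the same group, with summed Y-linked transcripts between 2.31 and 201 CPM, and their part in the results below was not tested.

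Promoter sequences of 5 members are shown because they carry, or lack, the elements through which the module is known to be driven. They come from RefSeq on GRCm38.p6, run 5′ to 3′ on the gene's strand and end at the base before the RefSeq start. Capitals mark matches on either strand to the ISRE core GAAANNGAAA, to the GAS element TTCNNNGAA or to the kappaB consensus, and where capitals run on, matches overlap.
Isg15, chr4:156200819-156200918, minus strand: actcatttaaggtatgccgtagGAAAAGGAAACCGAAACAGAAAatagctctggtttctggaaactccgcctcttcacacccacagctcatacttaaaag
Bst2, chr8:71537473-71537622, minus strand: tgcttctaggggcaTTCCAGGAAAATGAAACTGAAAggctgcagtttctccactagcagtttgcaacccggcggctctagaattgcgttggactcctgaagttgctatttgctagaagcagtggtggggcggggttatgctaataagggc
Ifit1, chr19:34640739-34640888, plus strand: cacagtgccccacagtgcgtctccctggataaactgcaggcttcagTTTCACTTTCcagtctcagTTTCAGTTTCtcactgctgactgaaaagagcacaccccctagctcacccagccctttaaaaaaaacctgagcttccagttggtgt
Irf1, chr11:53769914-53770013, plus strand: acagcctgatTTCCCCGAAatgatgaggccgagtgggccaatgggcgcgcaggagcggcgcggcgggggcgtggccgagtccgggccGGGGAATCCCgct
Oasl2, chr5:114896834-114896933, plus strand: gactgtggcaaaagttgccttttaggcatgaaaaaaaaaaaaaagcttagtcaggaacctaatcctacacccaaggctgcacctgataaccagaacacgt

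Isg15 held 3 overlapping ISRE cores that began 78, 72 and 66 bases before the start. Bst2 held 2 overlapping cores that began 130 and 124 bases before the start, and its GAS match overlapped the first of them. Ifit1 had cores on the opposite strand at 104 and 85 bases before the start. Irf1 had a GAS match at 90 and a kappaB match at 13 bases before the start and no ISRE core, and Oasl2 had no match to any of the motifs. RefSeq windows from 250 bases before to 50 bases after the start were at hand for 25 members, 4 of which had 2 windows. The members without a window were Zbp1, Dhx58, Parp9, Ifi27, Parp14, Oas2, Mx1, Usp18 and Rtp4. The ISRE core was found in 13 of the 25 members (52.0%), against 3.99% of the 27025 genes with a window. The GAS motif was found in 8 members (against 9.55% of genes) and the kappaB consensus in 4 members, Irf1, Ifit2, Ifitm3 and Oasl1 (16.0% against 6.55%). A match is a description of the letters and not evidence of a bound site.

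In resting WT cells the module ranged from abundant transcripts to near silence. Per length, in the RPKM values deposited by the authors, the restriction factor Ifitm2 had the highest mean level of the 34, at 470 RPKM in untreated WT. It was followed by Ifitm3 at 145, Bst2 at 45.9, Ifi27 at 26.4 and Ifi35 at 18.1 RPKM. These 5 held the first 5 places in 3 of the groups, and in Nbeal2-/- cells with IL-33 Usp18 came before Ifi35. Ifitm2 overlaps the protein-coding gene Gm45717 on the same strand in the annotation, so reads could be shared. The classical interferon readouts Mx1, Ifit1, Ifit3, Oas2, Zbp1 and Rtp4 did not pass the filter on low counts, with 3 to 32 counts each over all 16 libraries. Ifit1, whose promoter window held 2 ISRE cores, had 13 counts over the 16 libraries. Mx1 had 6, 4, 5 and 3 counts in the untreated WT libraries and 0 in each WT library with IL-33. In Nbeal2-/- libraries it had 2, 4, 4 and 3 counts untreated and 1 count in all with IL-33, and it was not tested. The other 28 members were tested, and 24 of them passed an adjusted p of 0.05 in at least 1 of the 5 comparisons made. The 4 that passed in none were Eif2ak2, Oas1a, Oasl1 and Rsad2.

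**Figure D1:**
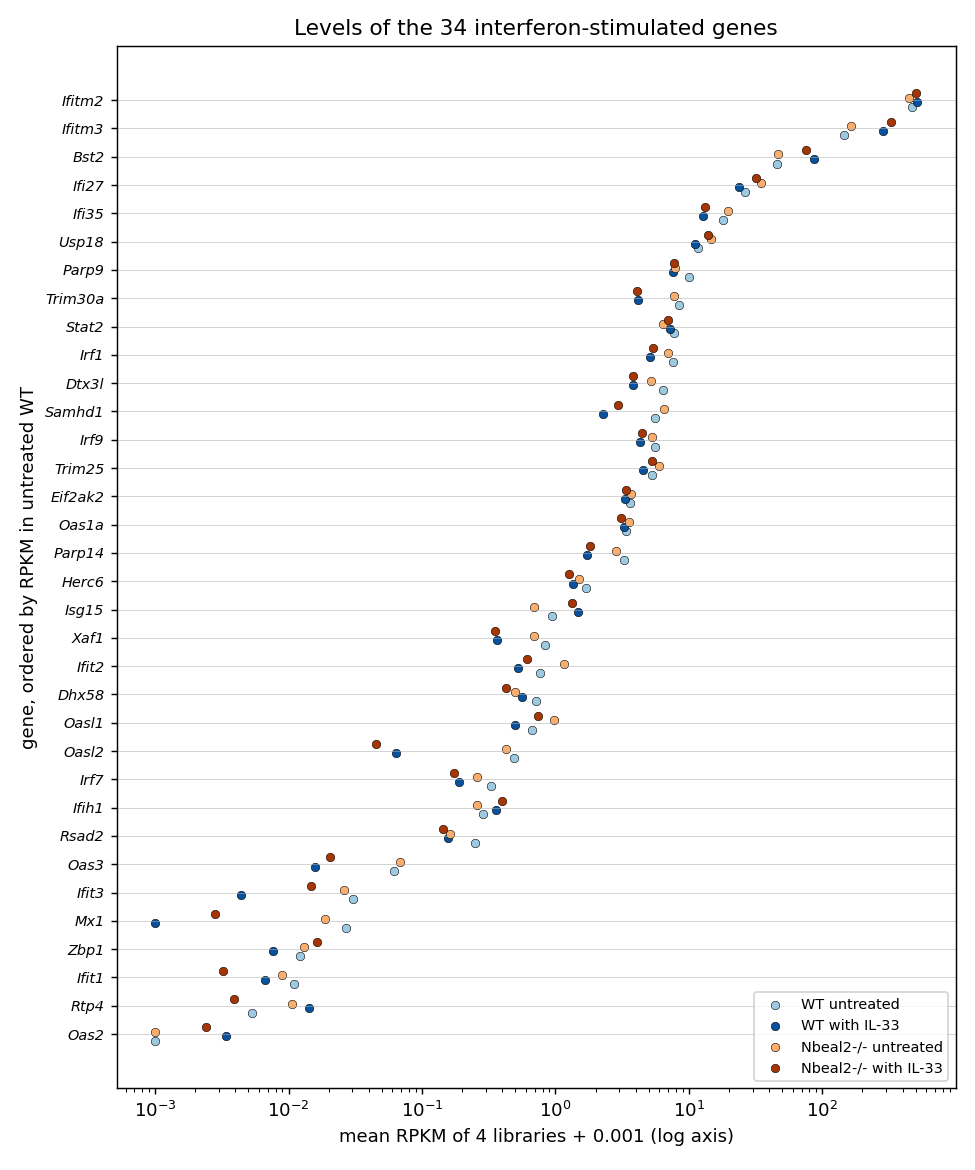
Mean RPKM of 4 libraries plus 0.001 on a log axis for each of the 34 genes in the 4 groups, ordered by the level in untreated WT. Ifitm2, Ifitm3 and Bst2 stand highest in each group, and the 6 genes below the filter stand under 0.05 RPKM.

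The first comparison asked how the module answered IL-33 in WT cells. Of the 28 genes tested, 5 rose, 14 fell and 9 did not pass the test, so 67.9% were called where 57.6% of all 15470 genes tested were called. The share that rose was 17.9% against 28.9% of all genes, and the 14 that fell compare with 28.6% of all genes. The median log2 fold change of the 28 was −0.29, and that of all genes was 0.0029. In Nbeal2-/- cells 6 members rose, 10 fell and 12 did not pass, which is 57.1% called against 55.1% of all genes. Higher calls made up 21.4% of members against 27.2% of all genes and lower calls 35.7% against 27.9%, and the median log2 fold change was −0.13 for the 28 and −0.01 for all genes. The 5 genes that rose in both genotypes were Isg15, Ifih1, Ifitm2, Ifitm3 and Bst2, and 10 fell in both. No member was called in opposite directions. Untreated and treated libraries did not overlap for 16 members in WT (52.4% of all genes) and for 16 in Nbeal2-/- (50.7% of all genes). In each genotype 5 members were called with a change over 2-fold, a cut for which the share of all genes was not computed. When reads were scaled to library totals in place of TMM factors, the median of all genes moved to −0.09 in WT and −0.13 in Nbeal2-/-, and 4 members rose and 17 fell in WT. Without the 4 libraries numbered 1, the WT calls of Ifih1 and Ifit2 were lost (edgeR adjusted p of 0.0644 and 0.0513). Trim25 was then called lower in WT (−0.23, adjusted p = 0.00052) and in Nbeal2-/- (−0.14, adjusted p = 0.0176), Rsad2 lower in WT (−0.68, adjusted p = 0.0457) and Irf9 lower in Nbeal2-/- (−0.21, adjusted p = 0.0049).

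**Figure D2:**
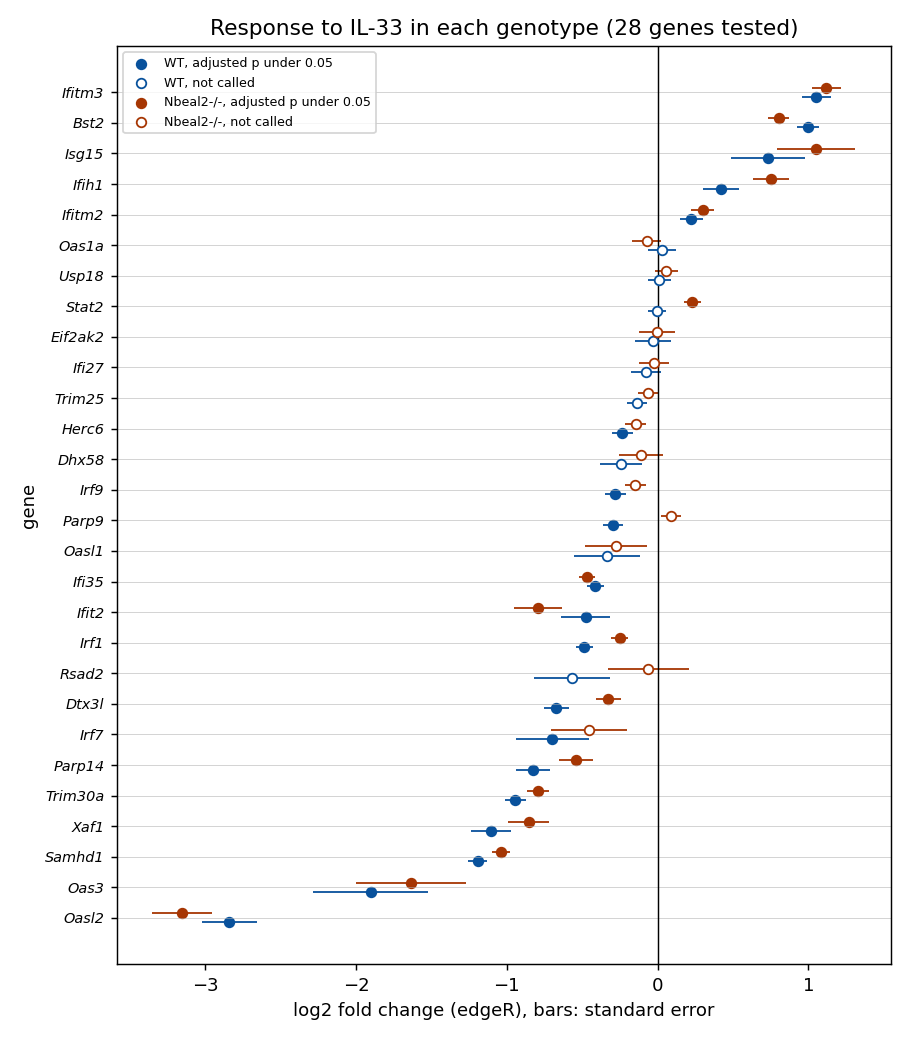
Log2 fold change with IL-33 (x axis) for the 28 genes tested, in WT and in Nbeal2-/-, with standard errors as bars and filled points for an adjusted p under 0.05. Ifitm3, Bst2, Isg15, Ifih1 and Ifitm2 lie above 0 in both genotypes, and Oasl2 lies lowest at −2.84 and −3.15.

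Neither member of the NF-kB-inducible class rose with IL-33, although NF-kB target genes did. Irf1, a transcription factor that drives many of these genes without ISGF3, lies on chromosome 11 at 53770014 to 53778374 (GRCm38, plus strand). It was at 30.04, 29.3, 29.6 and 28.4 CPM in untreated WT libraries and at 22.4, 20.9, 19.1 and 21.2 CPM with IL-33. The Nbeal2-/- libraries stood at 28.7, 25.9, 26.5 and 25.5 CPM untreated and at 22.1, 21.4, 21.7 and 24.4 CPM with IL-33. Untreated and treated libraries did not overlap in either genotype. The log2 fold change was −0.49 ± 0.06 (SE) in WT and −0.25 ± 0.06 in Nbeal2-/-, with edgeR quasi-likelihood adjusted p of 1.2e-06 and 0.0013.

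Trim30a encodes a TRIM protein known in mouse as a brake on Toll-like receptor signalling to NF-kB. It was at 34.2, 33.8, 32.2 and 34.6 CPM in untreated WT and at 20.02, 15.5, 16.3 and 18.2 CPM with IL-33. The Nbeal2-/- libraries were at 27.2, 30.1, 32.9 and 31.3 CPM untreated and at 17.1, 17.7, 17.9 and 17.4 CPM with IL-33. Each treated library was below each untreated library of its genotype. Trim30a fell 1.92-fold in WT and 1.73-fold in Nbeal2-/- (edgeR adjusted p of 4.2e-09 and 4.5e-08). Of the 10 NF-kB targets listed for comparison, 10 rose in WT and 10 in Nbeal2-/-, against 28.9% and 27.2% of all genes. Their median log2 fold changes were 2.37 and 2.74. Nfkb2, the p100 precursor, went from a mean of 42.2 to 438 CPM in WT, Nfkbia, the inhibitor IkB alpha, from 11.1 to 170 CPM, and Relb from 8.10 to 75.5 CPM.

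**Figure D3:**
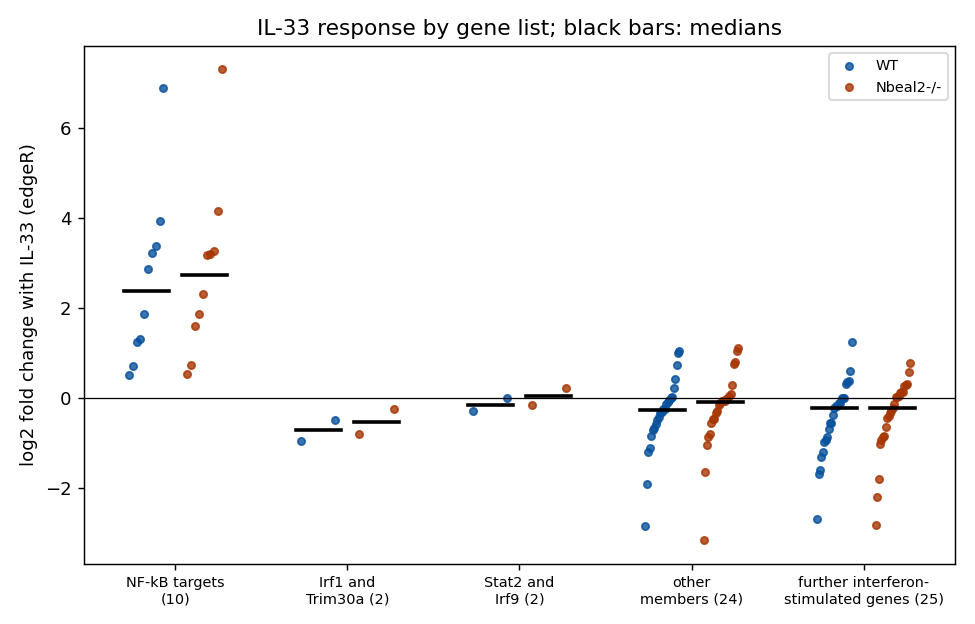
Log2 fold change with IL-33 (y axis) of each tested gene in 5 lists, in WT and Nbeal2-/-, with black bars for medians. The 10 NF-kB targets lie above 0 and Irf1 and Trim30a below 0 in both genotypes, while the remaining lists spread to either side.

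Of the ISGF3 subunits, the main test called Irf9 lower in WT and Stat2 higher in Nbeal2-/-, and called neither response different between the genotypes. Stat2, on chromosome 10 at 128270559 to 128292849, was at 42.6, 43.8, 44.5 and 46.3 CPM in untreated WT and at 47.2, 45.1, 40.6 and 43.7 CPM with IL-33, and the groups overlapped. For Nbeal2-/- the levels were 34, 37.5, 38.8 and 35.0 CPM untreated and at 44.3, 39.5, 45.3 and 41.5 CPM with IL-33, without overlap. It rose in Nbeal2-/- by a log2 fold change of 0.23 ± 0.06 (edgeR adjusted p = 0.0026), against −0.01 ± 0.06 in WT (adjusted p = 0.95). The difference between those responses was 0.24 ± 0.08 with an adjusted p of 0.12. The rise in Nbeal2-/- depended on the scaling, since with library totals in place of TMM it was 0.12 with an adjusted p of 0.109. Irf9, the DNA-binding subunit, was at 24.7, 30.9, 30.7 and 29.7 CPM in untreated WT and at 23.7, 25.6, 24.2 and 22 CPM with IL-33. Without Nbeal2 the levels were 25.2, 29.3, 28.4 and 26.7 CPM untreated and at 24.9, 24.6, 24.6 and 24.9 CPM with IL-33. It fell in WT by 0.28 on the log2 scale (edgeR adjusted p = 0.0022), with 1 untreated library inside the treated range, and in Nbeal2-/- it stood at −0.15 (adjusted p = 0.080). The Nbeal2-/- libraries did not overlap. It passed in Nbeal2-/- without WT untreated library 1, WT IL-33 library 2 or 4 or Nbeal2-/- untreated library 1, with adjusted p of 0.0126 to 0.0471. It also passed there by limma (−0.25, adjusted p = 0.0049). In edgeR it passed with library totals (−0.26, adjusted p = 0.0043) and with only the 2 groups fitted (−0.15, adjusted p = 0.0439). The difference of the Irf9 responses was 0.13 with an edgeR adjusted p of 0.50. The gene overlaps Rnf31 on the same strand in the annotation, so reads could be shared. Irf7, which amplifies interferon production, averaged 1.21 ± 0.245 CPM (SD, n = 4) in untreated WT and 0.734 ± 0.309 CPM with IL-33, and this drop passed the test in WT (edgeR adjusted p = 0.022). The Irf7 call was lost without WT untreated library 2, at −0.57 with an adjusted p of 0.0725, and likewise without WT IL-33 library 3 or 4.

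Of the 24 ISGF3 targets tested, 5 rose, 11 fell and 8 did not pass in WT, and 5 rose, 8 fell and 11 did not pass in Nbeal2-/-. The shares that rose were 20.8% in both, against 28.9% and 27.2% of all genes, and those that fell were 45.8% and 33.3%, against 28.6% and 27.9%. The risen targets were membrane restriction factors, a sensor and ISG15, and the deepest falls were in the OAS family and in Samhd1. Genes under 5 CPM in each group, among them Oasl2, Isg15 and Ifih1, are described below because of their values and were singled out after these had been seen.

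Proteins of the cell membrane and of viral entry held the clearest rises. Bst2, known as tetherin, holds budding virions at the cell surface. It was at 44.7, 38.7, 40.1 and 37.6 CPM in untreated WT and at 78.1, 78.9, 81.8 and 82.6 CPM with IL-33. In Nbeal2-/- the values were 48.5, 38.0, 36.7 and 39.5 CPM untreated and 71.8, 69.1, 70.9 and 72.1 CPM with IL-33. Untreated and treated libraries were far apart in both genotypes. The increase was 1.99-fold in WT and 1.74-fold in Nbeal2-/- (edgeR adjusted p of 2.4e-09 and 4.2e-08).

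Ifitm3, which blocks fusion of enveloped viruses in endosomes, was at 112, 80.3, 91.6 and 97.9 CPM in untreated WT and at 209, 177, 205 and 203 CPM with IL-33. Levels in Nbeal2-/- were 126, 97.5, 104 and 97.3 CPM untreated and at 236, 214, 232 and 240 CPM with IL-33. No treated library came down to the untreated range of its genotype. The increase was 2.08-fold in WT and 2.17-fold in Nbeal2-/-, with edgeR adjusted p of 4.1e-08 and 2e-08. Its neighbour of the same family Ifitm2 was at 330, 279, 299 and 286 CPM in untreated WT and at 373, 339, 335 and 349 CPM with IL-33. In Nbeal2-/- it was at 340, 256, 266 and 263 CPM untreated and at 350, 326, 353 and 354 CPM with IL-33, with the untreated library 1 inside the treated range. Its log2 fold changes were 0.22 ± 0.08 and 0.30 ± 0.08 (edgeR adjusted p of 0.020 and 0.0034). The call in WT was lost with library totals in place of TMM (0.14, adjusted p = 0.127). It was also lost without WT untreated library 2 or 4 or WT IL-33 library 1 or 4, with adjusted p of 0.0592 to 0.101.

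Samhd1, an enzyme that limits viral DNA synthesis by breaking down deoxynucleotides, moved the other way. It lies on chromosome 2 at 157097533 to 157135265. Its levels were 43.1, 51.3, 53.0 and 49.7 CPM in untreated WT and 20.4, 22.1, 21.2 and 22.4 CPM with IL-33. In Nbeal2-/- they were 53.0, 58.7, 60.6 and 56.1 CPM untreated and 27.6, 28.4, 27.7 and 27.7 CPM with IL-33. The highest treated library of either genotype was well below the lowest untreated one. Samhd1 fell 2.29-fold in WT and 2.05-fold in Nbeal2-/- (edgeR adjusted p of 2.1e-11 and 1.3e-10). Rsad2, whose product viperin makes a chain-terminating nucleotide, averaged 1.05 ± 0.229 CPM in untreated WT and 0.699 ± 0.220 CPM with IL-33 (n = 4 each). Its log2 fold change of −0.57 did not pass in the unpaired test (edgeR adjusted p = 0.0624), and with the replicate numbers as a block it was −0.58 with an adjusted p of 0.0215. It also passed without WT untreated library 2, WT IL-33 library 1 or Nbeal2-/- IL-33 library 2, with adjusted p of 0.0137 to 0.0398.

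OAS enzymes make the second messenger that activates RNase L, and OAS-like proteins share their fold. Oasl2, an OAS-like protein, lies on chromosome 5 at 114896936 to 114912234. It was at 2.66, 2.99, 2.97 and 3.45 CPM in untreated WT and at 0.463, 0.520, 0.208 and 0.465 CPM with IL-33. The Nbeal2-/- libraries stood at 2.56, 2.25, 2.55 and 3.00 CPM untreated and at 0.266, 0.257, 0.343 and 0.296 CPM with IL-33. All 8 treated libraries were below all 8 untreated ones. The drop was 7.16-fold in WT and 8.89-fold in Nbeal2-/- (edgeR adjusted p of 5.1e-10 and 3.8e-10). Oas3 averaged 0.417 CPM in untreated WT and 0.107 CPM with IL-33 and fell 3.74-fold, and in Nbeal2-/- it fell 3.11-fold (edgeR adjusted p of 0.00036 and 0.00099). Oas1a, at a mean of 6.22 CPM in untreated WT, and Oasl1, at 1.70 CPM, did not pass the test in either genotype, with log2 fold changes of 0.03 and −0.34 in WT. Oas1a has close relatives in its gene cluster, so reads may be split between copies.

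The ISG15 system attaches the ubiquitin-like ISG15 to proteins through HERC ligases and removes it through USP18. Isg15 was at 0.763, 0.421, 0.841 and 0.545 CPM in untreated WT and at 1.23, 1.14, 1.02 and 0.886 CPM with IL-33. For Nbeal2-/- the levels were 0.456, 0.274, 0.714 and 0.428 CPM untreated and at 0.839, 0.873, 1.20 and 0.986 CPM with IL-33. The treated libraries were the higher in each genotype, at low levels. It rose 1.66-fold in WT and 2.07-fold in Nbeal2-/- (edgeR adjusted p of 0.017 and 0.0022). The call in WT was lost without untreated library 2 or 4 or IL-33 library 1, with adjusted p of 0.0576 to 0.0627.

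Usp18 did not follow Isg15. It was at 34.6, 32.1, 31.0 and 28.4 CPM in untreated WT and at 33.9, 30.9, 32 and 30.3 CPM with IL-33, and in Nbeal2-/- at 44.5, 37.9, 35.0 and 38.7 CPM untreated and 44.2, 42.6, 37.9 and 37.6 CPM with IL-33. The overlap with and without IL-33 was wide in both genotypes, and the log2 fold changes were 0.01 and 0.06 (edgeR adjusted p of 0.92 and 0.55). Herc6, the mouse ISG15 ligase, was at 15.4, 15.9, 13.7 and 15.8 CPM in untreated WT and at 13.5, 13.2, 11.6 and 13.4 CPM with IL-33. Without Nbeal2 the levels were 12.8, 13.8, 12.5 and 14.5 CPM untreated and at 11.7, 12.7, 11.8 and 12.3 CPM with IL-33. It fell by 0.23 on the log2 scale in WT (edgeR adjusted p = 0.0069). In Nbeal2-/- it was −0.15 (adjusted p = 0.081), and −0.14 with the replicate block (adjusted p = 0.0367). It passed there without WT IL-33 library 3 or Nbeal2-/- IL-33 library 2 (adjusted p of 0.0354 and 0.0470). Trim25, a ubiquitin ligase of the RIG-I pathway, was at 25.5, 31.0, 31.5 and 31.0 CPM in untreated WT and at 27.3, 27.0, 27.2 and 26.5 CPM with IL-33. Levels in Nbeal2-/- were 29.5, 34.7, 34.9 and 32.3 CPM untreated and at 32.2, 31.8, 32.1 and 29.7 CPM with IL-33. Its log2 fold changes with IL-33 were −0.14 and −0.06 and did not pass. Without WT untreated library 1, Trim25 was called lower in WT, at −0.23 with an edgeR adjusted p of 0.0020, and with library totals in place of TMM at −0.23 with an adjusted p of 0.0090. Without Nbeal2-/- IL-33 library 4 its adjusted p in WT was 0.0495.

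The ubiquitin ligase Dtx3l, its partner Parp9 and the ADP-ribosyltransferase Parp14 lie together on chromosome 16. Dtx3l (35926511 to 35939151, minus strand) and Parp9 (35938470 to 35972605, plus strand) overlap at their 5′ ends, and whether the counting used strand was not given in the sources used here. Dtx3l was at 32.7, 38.6, 34 and 37.8 CPM in untreated WT and at 24.8, 22.2, 20.1 and 22.7 CPM with IL-33. In Nbeal2-/- it was at 23.3, 29.1, 31.4 and 30.2 CPM untreated and at 22.9, 22.6, 22.7 and 22.5 CPM with IL-33. The treated libraries lay below the untreated ones in both genotypes, narrowly so for Nbeal2-/- library 1. Dtx3l fell 1.59-fold in WT and 1.25-fold in Nbeal2-/- (edgeR adjusted p of 2.2e-06 and 0.0031). Parp14 was at 25.1, 34.2, 26.8 and 30.9 CPM in untreated WT and at 18.1, 16.0, 15.1 and 16.6 CPM with IL-33, and it fell 1.78-fold (edgeR adjusted p = 6.4e-06). In Nbeal2-/- Parp14 was at 19.4, 26.9, 28.4 and 27.1 CPM untreated and at 18.3, 16.1, 18.8 and 16.8 CPM with IL-33, a 1.45-fold drop (edgeR adjusted p = 0.00056). The untreated library 1 of Nbeal2-/- lay close to the treated range for both genes.

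Parp9 was the member whose response differed between the genotypes. It was at 49.2, 49.5, 41.9 and 48.2 CPM in untreated WT and at 40.8, 41.5, 34.3 and 36.9 CPM with IL-33, and each numbered culture went down. The Nbeal2-/- libraries stood at 34.3, 37.3, 38.6 and 36.1 CPM untreated and at 39.9, 38.9, 40.1 and 36.6 CPM with IL-33, and each numbered culture went up. The log2 fold change was −0.30 ± 0.07 in WT (edgeR adjusted p = 0.00087) and 0.09 ± 0.07 in Nbeal2-/- (adjusted p = 0.28). The difference of these responses was 0.39 ± 0.09 with an edgeR adjusted p of 0.024, and 3.57% of the members tested were called in this comparison against 4.56% of all genes, or 2.01% in this direction. The call was lost when any of 5 libraries was left out, namely WT untreated 2, WT IL-33 4, Nbeal2-/- untreated 4 and Nbeal2-/- IL-33 1 or 3, with adjusted p of 0.0541 to 0.0604. Without the 4 libraries numbered 1 the called members were Parp9, Irf1 and Dtx3l, the last at 0.35 with an adjusted p of 0.0205. DESeq2 called Parp9 and Irf1.

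Of the 3 sensors of foreign RNA that were tested, 1 rose with IL-33 in each genotype and 0 fell, and this 33.3% is near the 28.9% and 27.2% of all genes that rose. Ifih1, the double-stranded RNA sensor MDA5, averaged 2.26 ± 0.282 CPM in untreated WT and 3.02 ± 0.237 CPM with IL-33, and 2.00 ± 0.159 and 3.37 ± 0.482 CPM in Nbeal2-/- (n = 4 each). It rose 1.34-fold in WT and 1.68-fold in Nbeal2-/- (edgeR adjusted p of 0.0060 and 3.8e-05). Dhx58, the helicase LGP2, and Eif2ak2, the kinase PKR, did not pass in either genotype, with log2 fold changes of −0.24 and −0.03 in WT. Without WT IL-33 library 1 Dhx58 was called lower in WT, at −0.38 with an adjusted p of 0.0346. Eif2ak2 averaged 17.8 ± 2.19 CPM in untreated WT and 17.4 ± 1.07 CPM with IL-33. Ifit2, the tested member of the IFIT RNA-binding family, fell by 0.48 on the log2 scale in WT and by 0.79 in Nbeal2-/- (edgeR adjusted p of 0.019 and 0.00039), and the WT call was lost without untreated library 1 (adjusted p = 0.0584).

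Among the remaining targets, Ifi35, a protein that binds NMI, was at 29.1, 29.4, 33.7 and 28.9 CPM in untreated WT and at 21.6, 22.8, 23.8 and 22.9 CPM with IL-33. For Nbeal2-/- the levels were 33.8, 32.8, 31.4 and 32.7 CPM untreated and at 22.4, 24.1, 23.2 and 24.7 CPM with IL-33. It fell 1.33-fold and 1.38-fold without overlap (edgeR adjusted p of 4.6e-06 and 1e-06). Xaf1, a proapoptotic factor, averaged 3.80 ± 0.559 CPM in untreated WT and 1.75 ± 0.198 CPM with IL-33 and fell 2.15-fold, against 1.81-fold in Nbeal2-/- (edgeR adjusted p of 1.6e-06 and 3.9e-05). Ifi27, a small membrane protein of mitochondria, was at 41.7, 40.2, 36.7 and 32 CPM in untreated WT and at 39.6, 38.9, 35.2 and 29.1 CPM with IL-33. Without Nbeal2 the levels were 52.3, 50.9, 42.6 and 50.5 CPM untreated and at 47.1, 53.7, 43.0 and 49.5 CPM with IL-33. It overlapped between treated and untreated libraries in both genotypes and did not pass.

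**Figure D4:**
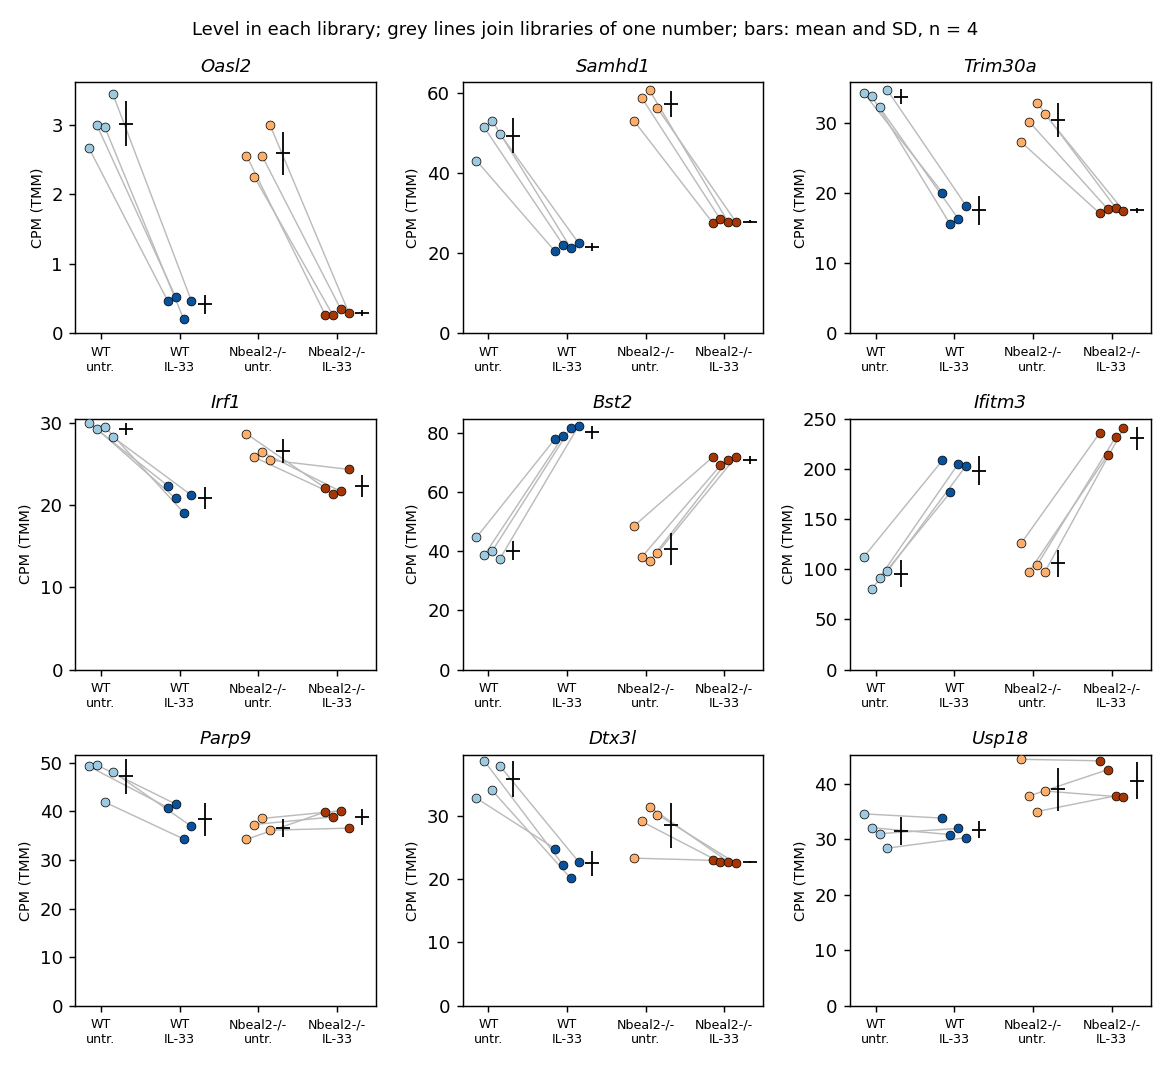
CPM (y axis, from 0) of 9 genes in each library of the 4 groups, with mean and SD (n = 4) beside the points and grey lines between libraries of the same number. Bst2 and Ifitm3 rise, Oasl2, Samhd1, Trim30a and Irf1 fall, Parp9 falls in WT alone by the test, and Usp18 is higher in Nbeal2-/-.

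The promoter elements were set beside the IL-33 calls as a description, with no test. All 5 members that rose in WT had a window with an ISRE core (Bst2, Ifih1, Ifitm2, Ifitm3 and Isg15), as the first 2 sequences above show. Of the 12 fallen members with a window, 2 had the core, Oas3 and Trim30a, and of the 6 not called, 4 had it. In Nbeal2-/- the core was found in 6 of 6 risen, 2 of 9 fallen and 3 of 8 uncalled members with a window. Over all genes tested that had a window, the shares in WT were 3.97% of risen, 3.86% of fallen and 3.52% of uncalled genes. The kappaB consensus was found in Irf1 and Ifit2, which fell, in Ifitm3, which rose, and in Oasl1, which was not called.

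The second question was whether loss of Nbeal2 changed the module at rest. In untreated cells 4 members were higher in Nbeal2-/-, 5 were lower and 19 did not pass, so 32.1% were called against 35.9% of all genes. Higher calls made up 14.3% of members against 18.4% of all genes, and lower calls 17.9% against 17.5%. The comparison uses the same 4 untreated WT libraries as the IL-33 comparison in WT, so the values for a gene in the 2 comparisons are not independent. The largest difference that passed was 1.47-fold. Libraries of the genotypes did not overlap for 7 members at rest (28.2% of all genes) and for 7 with IL-33 (22.9% of all genes). In this bulk RNA, fewer cells expressing a gene and less RNA per cell cannot be told apart.

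Usp18, Samhd1, Ifi27 and Ifit2 were the members higher in untreated Nbeal2-/- cells. Usp18 was 1.24-fold higher (edgeR adjusted p = 0.0052), and each Nbeal2-/- library, at 35.0 CPM or more, was above each WT library, at 34.6 CPM or less. Samhd1 was 1.16-fold higher (adjusted p = 0.0095), with the lowest Nbeal2-/- library at the level of the highest WT library. When only the untreated libraries were fitted, the adjusted p of Samhd1 was 0.0587. Ifi27 was higher by 0.38 on the log2 scale with no overlap (edgeR adjusted p = 0.0076). Ifit2 averaged 2.94 ± 0.670 CPM in WT and 4.36 ± 0.724 CPM in Nbeal2-/- (n = 4 each) and was 1.47-fold higher (edgeR adjusted p = 0.0097), with overlapping libraries.

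Stat2, Parp9, Dtx3l, Herc6 and Dhx58 were lower in untreated Nbeal2-/- cells. Stat2 was 1.22-fold lower, with no Nbeal2-/- library above 38.8 CPM and no WT library below 42.6 CPM (edgeR adjusted p = 0.0012). Parp9 was 1.29-fold and Dtx3l 1.26-fold lower, both without overlap (adjusted p of 0.00046 and 0.0054). Dhx58 went from 2.27 ± 0.165 CPM in WT to 1.56 ± 0.279 CPM (n = 4 each), a 1.45-fold difference (edgeR adjusted p = 0.0071). Herc6 was 1.14-fold lower with an adjusted p of 0.042, and this call was lost in 11 of the alternative settings. Rsad2, at a log2 fold change of −0.65, and Irf1, at −0.14, did not pass, with edgeR adjusted p of 0.053 and 0.068. Both were called lower by DESeq2 (adjusted p of 0.047 and 0.030) and with size factors of the DESeq2 kind in edgeR (0.049 and 0.045), and Rsad2 also by limma (0.041). Without the 4 libraries numbered 1, Irf1 (−0.17, adjusted p = 0.0314) and Ifitm2 (−0.14, adjusted p = 0.0131) were called lower by edgeR, and the call of Herc6 was lost (adjusted p = 0.117). Of the uncalled members, Irf1, Irf9, Isg15, Trim25, Oasl1, Ifitm2, Ifitm3, Rsad2, Xaf1 and Ifi35 passed when a single library was left out. Ifitm2, for example, was called lower without Nbeal2-/- untreated library 1, at −0.19 with an adjusted p of 0.0148.

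With IL-33 present, 4 members were higher in Nbeal2-/-, 0 were lower and 24 did not pass, which is 14.3% called against 11.2% of all genes. Higher calls were 5.49% and lower calls 5.69% of all genes. At an unadjusted p under 0.05, 3 members were lower by edgeR, and the share of all genes at that cut was not computed. After adjustment DESeq2 and limma also called 0 members lower. Usp18, Samhd1 and Ifi27 were higher under IL-33 as well as at rest, by 1.28-fold, 1.29-fold and 1.35-fold (edgeR adjusted p of 0.0057, 0.00068 and 0.0093). Trim25 was 1.16-fold higher with an adjusted p of 0.042, a call lost in 13 of the alternative settings. Stat2, Dtx3l and Parp9, which were lower at rest, had log2 fold changes of −0.05, 0.01 and 0.02 with IL-33 and did not pass. Bst2, at 78.1 to 82.6 CPM in WT and 69.1 to 72.1 CPM in Nbeal2-/-, did not overlap, and its log2 fold change of −0.18 had an edgeR adjusted p of 0.12. It was called when the 2 IL-33 groups were fitted alone (adjusted p = 0.0013), without Nbeal2-/- untreated library 1 (adjusted p = 0.0164) and without the 4 libraries numbered 1 (adjusted p = 0.0040). Ifitm3, at 214 to 240 CPM in Nbeal2-/- and 177 to 209 CPM in WT, did not overlap either, and its log2 fold change of 0.22 had an adjusted p of 0.16. It was called higher when the 2 IL-33 groups were fitted alone (0.21, adjusted p = 0.0142). Oasl1 was called higher without Nbeal2-/- IL-33 library 2, at 0.75 with an adjusted p of 0.0250.

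**Figure D5:**
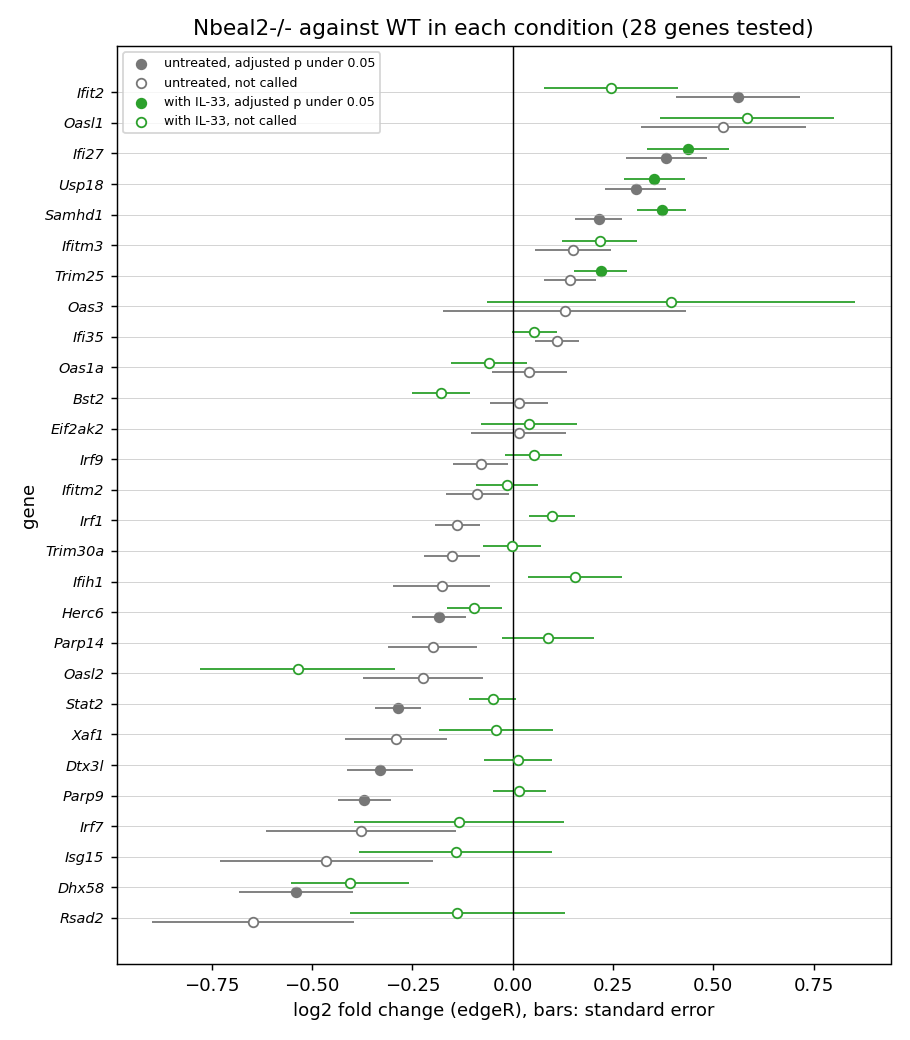
Log2 fold change of Nbeal2-/- against WT (x axis) for the 28 genes tested, untreated and with IL-33, with standard errors as bars and filled points for an adjusted p under 0.05. Ifi27, Usp18 and Samhd1 are filled above 0 in both conditions, and the 5 lower calls are all in untreated cells.

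The wider interferon pathway was read from lists of its ligands, receptors and other targets. Transcripts of 21 interferon genes were nearly absent, with at most 14 counts over all of them in any library. Ifnb1 and Ifng had 0 counts in each library, and 18 of the 21 had 0 counts in untreated WT, which for a single library allows up to 3 counts. Of the 5 receptor genes tested, 4 (80.0%) rose with IL-33 in WT and 5 (100%) in Nbeal2-/-. Of all genes, 28.9% and 27.2% rose. Ifngr2, a chain of the type II receptor, went from a mean of 0.610 to 3.14 CPM in WT (log2 fold change 2.35, edgeR adjusted p = 2.8e-08). Ifnar1 and Ifnar2, the type I receptor, rose by 0.42 and 0.29 on the log2 scale in WT.

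Of 11 signalling genes tested, 5 rose and 3 fell with IL-33 in each genotype. The 45.5% that rose compare with 28.9% (WT) and 27.2% (Nbeal2-/-) of all genes, and the 27.3% that fell are near the 28.6% and 27.9% of all genes. Irf5, a factor downstream of MyD88, went from 6.11 to 48.8 CPM in WT and from 4.93 to 57.5 CPM in Nbeal2-/-, and the kinase Jak2 from 139 to 501 CPM in WT and from 132 to 609 CPM in Nbeal2-/-. Socs1, an inhibitor of JAK kinases, went the other way, from 212 to 111 CPM in WT and from 237 to 114 CPM in Nbeal2-/-. Of 6 sensors and adaptors tested, 2 rose and 2 fell in each genotype (33.3% each way). This is near the 28.9% and 28.6% of all genes in WT and the 27.2% and 27.9% in Nbeal2-/-. Among them were Traf3 at 0.86 and Myd88, the adaptor of the IL-33 receptor, at −0.54 in WT on the log2 scale.

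A further 34 interferon-stimulated genes outside the module, listed from general knowledge, had 25 tested members. With IL-33, 5 rose and 14 fell in WT, and 7 rose and 13 fell in Nbeal2-/- (all genes 28.9% and 28.6%, then 27.2% and 27.9%), with median log2 fold changes of −0.21 and −0.22. The fallen genes included Trim34a, Lgals3bp and Trim21, at −0.69, −0.86 and −0.55 on the log2 scale in WT. In untreated cells 4 of these 25 (16%) were higher and 13 (52%) lower in Nbeal2-/-, with a median of −0.19, against 18.4% and 17.5% of all genes. With IL-33 2 (8%) were higher and 2 lower, against 5.49% and 5.69% of all genes. Sp100, at means of 29.5 CPM in untreated WT and 22 CPM in untreated Nbeal2-/-, and Trim21, at 34.6 and 27.1 CPM, were among the lower ones. Lgals3bp, a secreted glycoprotein, was higher in Nbeal2-/- by 0.54 untreated and 0.75 with IL-33 on the log2 scale (edgeR adjusted p of 3.9e-05 and 3.9e-06).

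Markers of other cell types that could supply interferon or interferon-stimulated transcripts were followed beside the module. Of 5 markers of plasmacytoid dendritic cells, 4, among them Siglech and Ccr9, had 0 counts in all libraries, and Tcf4 gave the list its summed level of 2.60 to 3.73 CPM in untreated WT and 0.619 to 1.28 CPM with IL-33. The 8 monocyte and macrophage markers summed to 11.4 to 17.3 CPM in untreated WT, 18.8 to 22.6 CPM in WT with IL-33, 23.0 to 33.7 CPM in untreated Nbeal2-/- and 22.4 to 28.2 CPM in Nbeal2-/- with IL-33. With IL-33 in WT, 2 of the 5 tested rose and 2 fell, and in Nbeal2-/- 1 rose and 1 fell. Of all genes, 28.9% rose and 28.6% fell in WT, and 27.2% and 27.9% in Nbeal2-/-. Adgre1, the antigen F4/80, was higher in untreated Nbeal2-/- by 1.59 on the log2 scale, and Marco and Ly6c2 were lower, at −1.53 and −1.63, so that of the 5 tested 1 was higher and 2 were lower (edgeR adjusted p of 2.3e-07, 0.029 and 0.018), with a median of −1.45. Of all genes, 18.4% were higher and 17.5% lower in untreated Nbeal2-/-. Marco and Ly6c2 were at low levels in the untreated groups, at 0.240 and 1.27 CPM in WT and 0.0812 and 0.419 CPM in Nbeal2-/-. C1qa and C1qb stayed at or under 0.0918 CPM in each group mean. The 5 conventional dendritic cell markers summed to 2.13 to 7.40 CPM in untreated WT, 1.37 to 3.19 in WT with IL-33, 1.57 to 5.42 in untreated Nbeal2-/- and 0.880 to 2.70 CPM in Nbeal2-/- with IL-33. Flt3, Xcr1 and Clec9a were at or near 0. The 6 neutrophil markers summed to at most 0.0595 CPM in any library and the 3 eosinophil markers to at most 0.278 CPM. In the list of T, NK and B cell markers Cd3e and Cd8a had 0 counts, and Ncr1 rose from a mean of 0.173 to 9.15 CPM in WT and from 0.238 to 9.46 CPM in Nbeal2-/-. The basophil marker Mcpt8, which mast cells can also transcribe, went from 5.49 to 97.8 CPM in WT and from 7.61 to 51.9 CPM in Nbeal2-/-. Prss34, the other basophil marker, was called lower with IL-33 in WT (−0.72 on the log2 scale, edgeR adjusted p = 0.042) and had the same −0.72 in Nbeal2-/- with an adjusted p of 0.076. The part of the markers that moved in the changes of the module was not tested.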

How the data were processed

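Poly(A)-selected directional libraries from 16 samples were analysed, 4 per group, with groups and numbers taken from the labels. The deposited table held raw counts per gene, which per the submitters' processing notes were made with bcl2fastq 2.20.0.422 and featureCounts 1.6.5 on GRCm38. The aligner and the strand setting of the counting were not given in the sources used here. It also held the authors' RPM values, which equalled counts scaled to the library total, and the authors' RPKM values, which were used to order genes by level.

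Counts were tested with edgeR 4.0.16 (R 4.3.3): filterByExpr by group, TMM factors, robust quasi-likelihood fits of 4 group means over all 16 libraries, and Benjamini-Hochberg adjustment over the 15470 genes tested, at 0.05. Levels are CPM with TMM factors, and standard errors were derived from the F statistic. Common dispersion gave a biological coefficient of variation of 9.56%. The procedure was tested on simulated data. Alternatives were DESeq2 1.42.0, limma 3.58.1 on log2(RPM + 1), size factors of the DESeq2 kind in edgeR, no filter, a replicate block, only the groups compared and each library left out. Without the 4 libraries numbered 1, and library totals in place of TMM, were added after seeing the data.

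Gene positions came from GENCODE M21, which matched 55141 of 55487 gene IDs, and 16 members overlap another gene there. Promoter windows were RefSeq tables on GRCm38.p6. Within a genotype, deviations of same-numbered libraries correlated at r of 0.288 to 0.369 (WT) and 0.171 to 0.340 (Nbeal2-/-) across genes, and each of the 4 numbers matched itself best, so the numbers pair untreated with IL-33 libraries. No library pair was a copy, since replicates differed by at least 5.34 times counting noise (chi-square per degree of freedom).

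The members, lists, classes and tests were chosen with earlier results of these data known. Members called in any comparison and with at least 5 CPM in their highest group are given with each library, the others by means or counts, and of other lists up to 3 called genes with the smallest p, apart from genes named for their role or level. Counts and floors cover counting error only.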

Additional observations from a re-analysis of the deposited data

Results flagged for a closer look

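In 10 of 112 groups of 4 libraries (8.93%) the highest or lowest library stood apart from the other 3 by Dixon's criterion, which chance does in about 1 of 20 groups. Libraries numbered 1 stood apart in 4 of these. Trim25 in untreated WT library 1 was at 25.5 CPM, with the others at 31.0 to 31.5. Parp14 in untreated Nbeal2-/- library 1 was at 19.4 CPM, with the others at 26.9 to 28.4. Ifitm2 in the same library was at 340 CPM, with the others at 256 to 266. Dhx58 in WT IL-33 library 1 was at 2.31 CPM, with the others at 1.75 to 1.80.

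Ifitm2 in Nbeal2-/- IL-33 library 2 was at 326 CPM, below the others at 350 to 354, and Samhd1 in that library was at 28.4 CPM, above the others at 27.6 to 27.7. Ifitm3 in WT IL-33 library 2 was at 177 CPM, below the others at 203 to 209. Herc6 in WT IL-33 library 3 was at 11.6 CPM, below the others at 13.2 to 13.5. Ifi35 in untreated WT library 3 was at 33.7 CPM, above the others at 28.9 to 29.4. Trim25 in Nbeal2-/- IL-33 library 4 was at 29.7 CPM, below the others at 31.8 to 32.2.

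The response of Parp9 to IL-33 differed between genotypes by 0.39 on the log2 scale in the edgeR test of the difference.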

How the results depend on the processing

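No called change of a member reversed sign under any setting where it was called, and signs of values called in neither setting were not compared. Calls held under each setting for 14 of 19 members with IL-33 in WT, 15 of 16 in Nbeal2-/-, 7 of 9 between untreated genotypes, 3 of 4 between treated genotypes and 0 of 1 for the difference. With 1 library left out, the count of members higher with IL-33 in WT was 3 to 5, reaching 3 without WT untreated library 2 or 4 or WT IL-33 library 1. The count lower in treated Nbeal2-/- was 0 to 1, and it was 1, Bst2, with only the 2 groups compared and without the libraries numbered 1. The count whose response was higher in Nbeal2-/- was 0 to 1 with 1 library left out, 2 with DESeq2 and 3 without the libraries numbered 1. The cause was not tested.

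Over all genes, library totals lowered the share of higher calls with IL-33 from 50.3% to 38.0% in WT and from 49.4% to 33.5% in Nbeal2-/-, and limma on RPM gave 38.1% and 33.8%. Genes with a different response numbered 311 higher and 395 lower by edgeR and 605 and 602 by DESeq2. With the replicate block, Rsad2 in WT (−0.58) and Herc6 in Nbeal2-/- (−0.14) were called, and no other call of a member with IL-33 changed. Across genotypes the numbers as a set did not pair the samples, but libraries numbered 1 resembled each other. Same-numbered libraries correlated at −0.0346 to 0.506 untreated and −0.0393 to 0.238 with IL-33, with number 1 the highest in both. The other numbers reached at most 0.163 and 0.0395. WT library 1 correlated with Nbeal2-/- libraries of other numbers at −0.378 to −0.193 untreated and −0.146 to −0.0265 with IL-33. What the libraries numbered 1 had in common was not tested. In edgeR, a block on the numbers across genotypes added Rsad2 untreated (−0.63, adjusted p = 0.0292) and Ifitm3 with IL-33 (0.22, adjusted p = 0.0242). Depth limits the 6 members of 3 to 32 counts, which were not tested.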
